A study of Mus musculus with 6 samples.

Results

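The genes described here are 51 nuclear genes for subunits of the mitochondrial respiratory chain and ATP synthase, taken by symbol from a table of counts for 55335 mouse genes. They were grouped by the enzyme complex their symbols name: 21 in complex I (Nduf genes), 1 in complex II (Sdhb), 7 in complex III (Uqcr genes and Cyc1), 10 in complex IV (Cox genes) and 11 in complex V (Atp5 genes), with Cycs, the gene for cytochrome c, kept apart. No measured value enters this rule, although the members were chosen with earlier results of these data known. All 51 passed the filter on low counts that left 13901 genes to test. The samples were mouse bone marrow-derived macrophages (BMDMs), primary cells grown in high-glucose DMEM with 10% serum and 20 ng/mL of the growth factor M-CSF. All of them received, on day 5, medium in which injured acinar cells of the pancreas, its digestive enzyme producers, had been kept (PAC-CM). The PAC-CM group (3 libraries) had no further agent. The PAC-CM-KD group (3 libraries) also had 400 µM kinsenoside, a plant glycoside. Macrophages without conditioned medium were not analysed here, so every difference below is between conditioned medium with and without kinsenoside. The labels name no strain, age or sex of the mice and leave unsaid whether the replicates are biologically separate. The p-values therefore rest on differences among these libraries, part of which could be technical.

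The respiratory chain passes electrons from NADH (through complex I) and succinate (through complex II) to ubiquinone, then through complex III and the soluble carrier cytochrome c to complex IV, which reduces oxygen. Complexes I, III and IV pump protons, and complex V, the ATP synthase, uses the proton gradient to make ATP. The complexes except II combine nuclear-encoded subunits with a few encoded in mitochondrial DNA. Macrophages activated by inflammatory signals are known for a shift from respiration towards glycolysis.

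The total counts ranged from 41125059 to 47461702 per library. Levels are given as CPM, a count divided by the library total after multiplying that total by its TMM factor, which corrects for composition. This factor was 1.01 to 1.02 for PAC-CM and 0.979 to 0.990 for PAC-CM-KD. The summed level of the 8 macrophage markers was 19920 to 21860 CPM in the PAC-CM libraries and 22210 to 25330 CPM in the PAC-CM-KD libraries (mean 20930 and 23440 CPM), wholly higher with kinsenoside. As a share of the library total their groups overlapped, and 7 of the 8 had estimates above 0, with a median log2 fold change of 0.07. The summed level of the 10 acinar cell markers was 6.61 to 7.16 CPM in the PAC-CM libraries and 5.27 to 8.04 CPM in the PAC-CM-KD libraries, with the acinar factor Ptf1a at 0 in all 6. Neutrophil, dendritic cell, lymphocyte and fibroblast markers were near 0 apart from S100a8 and Xcr1. The part of these markers' cells in the results was not tested, and in bulk samples fewer cells of a type and less RNA per cell cannot be told apart.

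The respiratory chain genes lay slightly higher with kinsenoside, by an amount that single genes did not carry past the test. By edgeR (quasi-likelihood, p adjusted over 13901 genes after Benjamini and Hochberg), 0 of the 51 members had an adjusted p under 0.05, where 0.511% of all tested genes did. At an unadjusted p under 0.05 there were 15 members, each higher with kinsenoside, against 14.9% of all tested genes in either direction and 6.74% higher. DESeq2 called 2 members, the complex I gene Ndufs8 (adjusted p = 0.000157) and the complex IV gene Cox5b (adjusted p = 0.000888), where it called 4.11% of 12009 genes. With edgeR and no filter on low counts Ndufs8 alone was called (edgeR adjusted p = 0.0397), where 0.448% of genes were. Limma-voom called 0 members, where it called 0.281% of all tested genes. The estimate was above 0 for 44 of the 51, where 48.9% of all tested genes were above 0. The median log2 fold change was 0.12 over the members and -0.0056 over all tested genes. For 27 members the 3 PAC-CM-KD libraries all lay above the 3 PAC-CM libraries and for 0 all lay below. Among all tested genes 10.4% were wholly above and 11.4% wholly below.

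The scaling bears on this count. As a share of the library total, with no TMM factor, 19 members had PAC-CM-KD wholly above and 0 wholly below, against 6.86% and 15.7% of all tested genes. With total count scaling the median over the members was 0.07, and 38 of 51 estimates were above 0, where 39.5% of all tested genes were above 0 and their median was -0.05. A change of scaling moves all genes by about the same amount. The summed counts of the 51 genes were 0.302%, 0.289% and 0.303% of all counts in the PAC-CM libraries (replicates 1, 2 and 3) and 0.305%, 0.313% and 0.312% in the PAC-CM-KD libraries. Every PAC-CM-KD library lay above every PAC-CM library in this share, though PAC-CM-KD replicate 1 did so narrowly. In TMM-scaled CPM the sum was 2935 ± 69.5 in PAC-CM and 3152 ± 46.9 in PAC-CM-KD, a ratio of 1.07 (SD, n = 3).

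**Figure D1:**
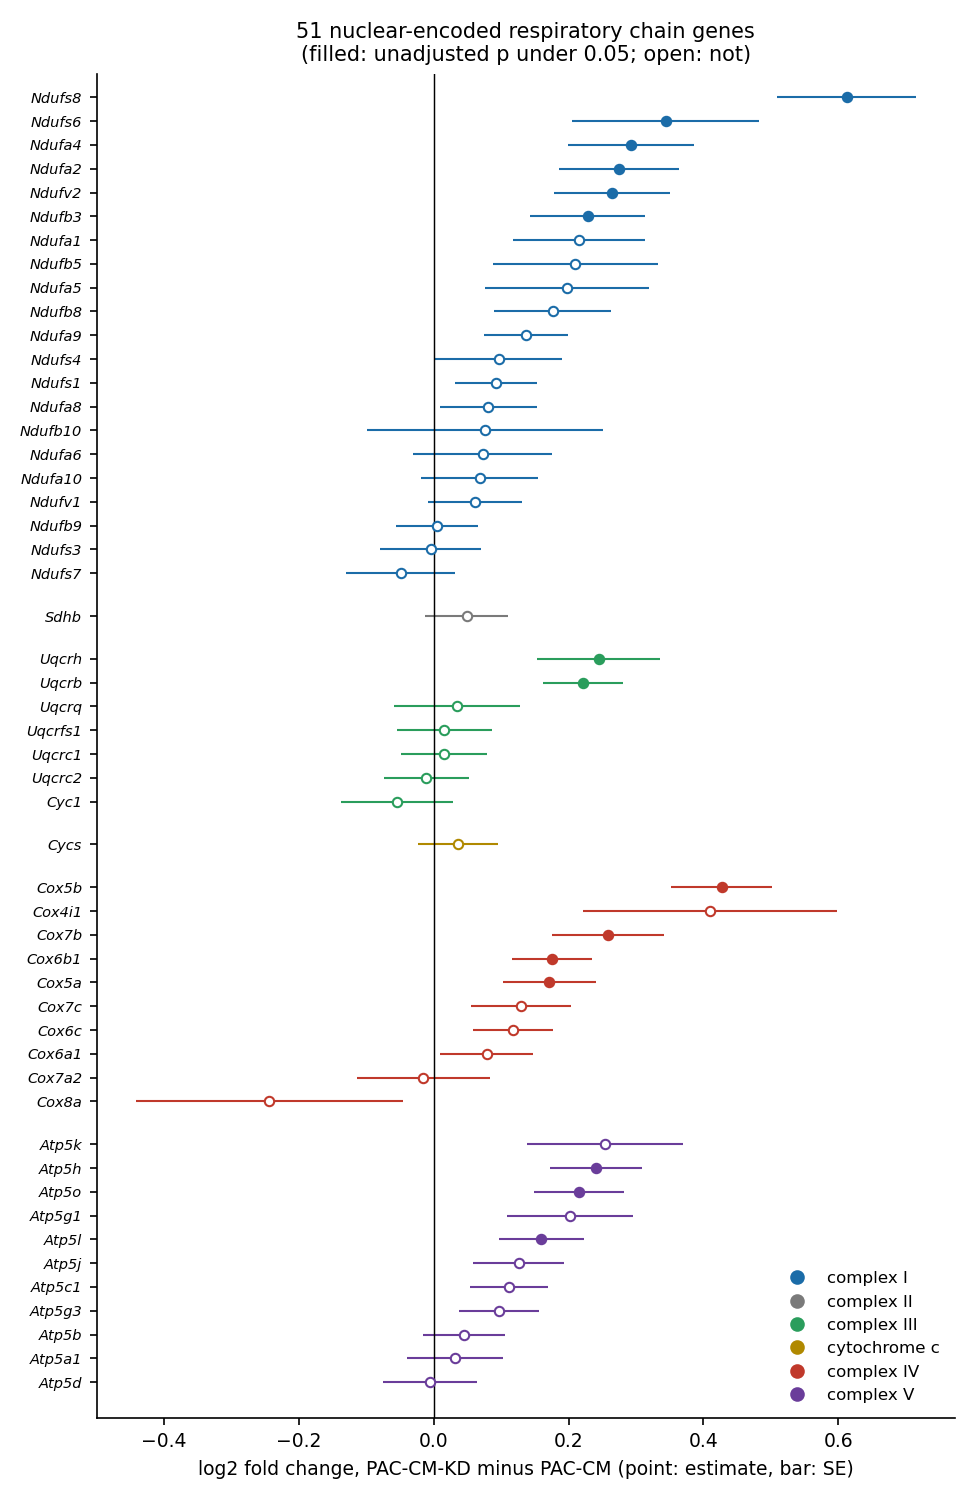
Log2 fold change of each of the 51 genes (points; x axis, PAC-CM-KD minus PAC-CM) with its standard error (bars), grouped by complex and ordered by estimate. Of the 51 points 44 lie right of 0; Ndufs8 has the highest estimate in complex I and Cox5b in complex IV, and Cox4i1 and Cox8a have the longest bars in complex IV.

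Transcription factors known to act on respiratory chain genes include NRF1, the ETS factor GABP, YY1 and the estrogen-related receptor ERRA. Promoter windows from 250 bases before to 50 bases after the start were taken from RefSeq (GRCm38.p6) and matched 41 of the 51 genes. Letters of 4 motifs were searched on both strands. The NRF1 letters GCGCA, any base, GCGC were in 10 of the 41 windows (24.4%), against 11.0% of the 9287 tested genes with a window and 4.60% of all 32851 windows. The ETS letters CCGGAAG were in 10 of 41 (24.4%), against 19.1% and 8.86%. The YY1 letters AANATGGC were in 10 of 41 (24.4%), against 9.29% and 6.05%, and 8 of those 10 were complex I genes. The ERRA letters TCAAGGTCA were in 1 of 41 (2.44%), against 0.248% and 0.423%, a share that rests on a single gene. A match is a description of letters and not of binding.

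The stretches below lie before the start, outside annotated exons, and show the members of smallest p in complexes I and IV and, for complexes III, IV and V, the most abundant gene with an NRF1 or ETS match that could be shown there. Capitals mark the motif letters on either strand.
Ndufs8 (complex I, chr19:3912885-3912984, minus strand, 1 YY1 match): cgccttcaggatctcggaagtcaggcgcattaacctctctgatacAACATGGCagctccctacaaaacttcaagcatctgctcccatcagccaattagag
Uqcrh (complex III, chr4:116075072-116075105, minus strand, 1 ETS match): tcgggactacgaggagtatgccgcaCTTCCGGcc
Cox5b (complex IV, chr1:36691347-36691446, plus strand, no match): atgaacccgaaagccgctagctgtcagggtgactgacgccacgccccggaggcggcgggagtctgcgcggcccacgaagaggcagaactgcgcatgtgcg
Cox6a1 (complex IV, chr5:115349041-115349129, minus strand, 2 NRF1 matches): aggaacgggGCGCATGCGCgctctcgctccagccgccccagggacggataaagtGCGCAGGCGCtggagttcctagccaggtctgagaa
Atp5l (complex V, chr9:44920923-44920979, minus strand, 1 ETS match): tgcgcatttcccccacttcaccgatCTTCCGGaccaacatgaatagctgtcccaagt
The pair with the smallest p, Ndufs8 and Cox5b, had no NRF1 match in their whole windows. The window of Ndufs8 held 1 ETS match, outside the stretch shown, beside its 1 YY1 match, and that of Cox5b held none of the 4 motifs.

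In complex I, 19 of 21 estimates were above 0, with a median of 0.14, and 10 genes had all PAC-CM-KD libraries above all PAC-CM libraries (6 as a share of the library total). Ndufs8 (ENSMUSG00000059734, chromosome 19, 3908863 to 3912774, GRCm38), a core subunit that carries iron-sulfur clusters on the path to ubiquinone, was at 10.1, 11.6 and 10.4 CPM in PAC-CM and 15.3, 16.0 and 17.9 CPM in PAC-CM-KD. The groups stood well apart, and in raw counts too (444, 558 and 467 against 652, 670 and 721). The log2 fold change was 0.61 (SE 0.103), or 1.53-fold, and its edgeR adjusted p of 0.0517 missed the threshold. Over 17 alternatives it passed in 4 (adjusted p from 0.000157 to 0.189). Without Ndufs8, the median of complex I was 0.12, with 18 of 20 estimates above 0.

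The other 5 core subunits had estimates from -0.05 to 0.26. Ndufv2, an iron-sulfur subunit near the NADH site, was at 38.8, 34.0 and 34.0 CPM without kinsenoside and 41.9, 46.3 and 40.02 CPM with kinsenoside (log2 fold change 0.26, SE 0.0856, edgeR adjusted p = 0.213). Its groups did not overlap in CPM but did as a share of the library total. Ndufv1, which binds NADH and the flavin, had 0.06, and Ndufs1, the largest iron-sulfur subunit, had 0.09, both likewise wholly higher in CPM and overlapping as a share of the library total. Ndufs3 and Ndufs7, which lie on the same arm as Ndufs8, had -0.0043 and -0.05. Ndufs7 was at 22.3 ± 1.24 CPM without kinsenoside and 21.6 ± 0.955 CPM with kinsenoside (SD, n = 3), with overlapping groups, the lowest estimate of the complex. Of the 6 core subunits 4 were above 0, and the same 4 were wholly higher in CPM.

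All 14 accessory subunits of complex I other than Ndufa4 had estimates above 0, from 0.0053 for Ndufb9 to 0.34 for Ndufs6, although with total count scaling Ndufb9 had -0.04. Ndufa9, the most abundant complex I gene in CPM (ENSMUSG00000000399, chromosome 6, 126821721 to 126849136), was at 51.1, 48.0 and 48.2 CPM without kinsenoside and 53.5, 55.3 and 53.3 CPM with kinsenoside. It sits at the junction of the complex's arms, and its groups did not overlap (log2 fold change 0.14, SE 0.0626, edgeR adjusted p = 0.353). Ndufs6, an accessory subunit of the NADH-oxidising part, was at 7.83, 8.25 and 6.72 CPM without kinsenoside and 10.8, 8.12 and 10.0 CPM with kinsenoside. Its groups overlapped through PAC-CM-KD replicate 2. Ndufa2 (0.27) and Ndufb3 (0.23) were wholly higher with kinsenoside, with edgeR adjusted p of 0.213 and 0.263. Ndufb10, in the membrane arm, was uneven within both groups, at 23.9, 16.6 and 17.1 CPM without kinsenoside and 16.7, 23.7 and 20.3 CPM with kinsenoside, with an estimate of 0.08 (SE 0.176).

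Complex II, which joins the chain to the citric acid cycle, has 1 member here. Sdhb, its iron-sulfur subunit (chromosome 4, 140961203 to 140979193), was at 94.6, 95.3 and 98.9 CPM without kinsenoside and 96.0, 99.2 and 103.5 CPM with kinsenoside. The groups overlapped (log2 fold change 0.05, SE 0.0614, edgeR adjusted p = 0.767). Of the subunits outside the members, Sdha had 0.04 with overlapping groups. Sdhc had 0.12 and Sdhd had 0.10, both wholly higher in CPM, and as a share of the library total Sdhc overlapped while Sdhd did not.

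In complex III the estimates were near 0 for most genes and higher for a pair of small subunits. Its 4 core proteins and electron carriers, Uqcrc1, Uqcrc2, the Rieske iron-sulfur protein Uqcrfs1 and cytochrome c1 (Cyc1), had estimates from -0.05 to 0.02, and all 4 had overlapping groups. With total count scaling the median of the whole complex was -0.03. Uqcrc1, the most abundant (chromosome 9, 108936633 to 108949623), was at 99.5 ± 2.61 CPM without kinsenoside and 100.5 ± 4.73 CPM with kinsenoside (SD, n = 3). Cyc1 (chromosome 15, 76343523 to 76346260) was lowest in estimate, at 59.0, 50.1 and 51.3 CPM against 48.9, 51.6 and 53.9 CPM, and without PAC-CM replicate 1 its estimate was 0.02. The small subunits Uqcrb and Uqcrh, which carry no electron-transfer group, lay higher with kinsenoside. Uqcrb (ENSMUSG00000021520, chromosome 13, 66900617 to 66905378), which takes part in ubiquinone binding, was at 39.6, 40.2 and 41.04 CPM and at 47.2, 46.95 and 46.7 CPM with kinsenoside. Both groups were tight and did not overlap (log2 fold change 0.22, SE 0.0591, edgeR adjusted p = 0.143). Uqcrh, the acidic hinge protein at cytochrome c1 (chromosome 4, 116066965 to 116075071), was at 40.4, 40.5 and 46.7 CPM against 47.8, 47.7 and 55.6 CPM (log2 fold change 0.24, SE 0.0906, edgeR adjusted p = 0.261). As a share of the library total its groups overlapped. Other small subunits did not all lie with them. Uqcrq, the remaining member, had 0.03 with overlapping groups, and of the small subunits outside the members Uqcr10 had -0.03 and Uqcr11 had 0.18, both with overlapping groups. This grouping by kind of subunit was drawn after the values were seen and has no test.

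The soluble carrier lay close to 0. Cycs (chromosome 6, 50562563 to 50566538), which carries electrons from complex III to complex IV and acts in apoptosis once released, was at 131.8, 124.6 and 132.1 CPM without kinsenoside and 130.8, 135.6 and 131.8 CPM with kinsenoside. The groups overlapped (log2 fold change 0.04, SE 0.0592, edgeR adjusted p = 0.834), and with total count scaling its estimate was -0.0086.

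**Figure D2:**
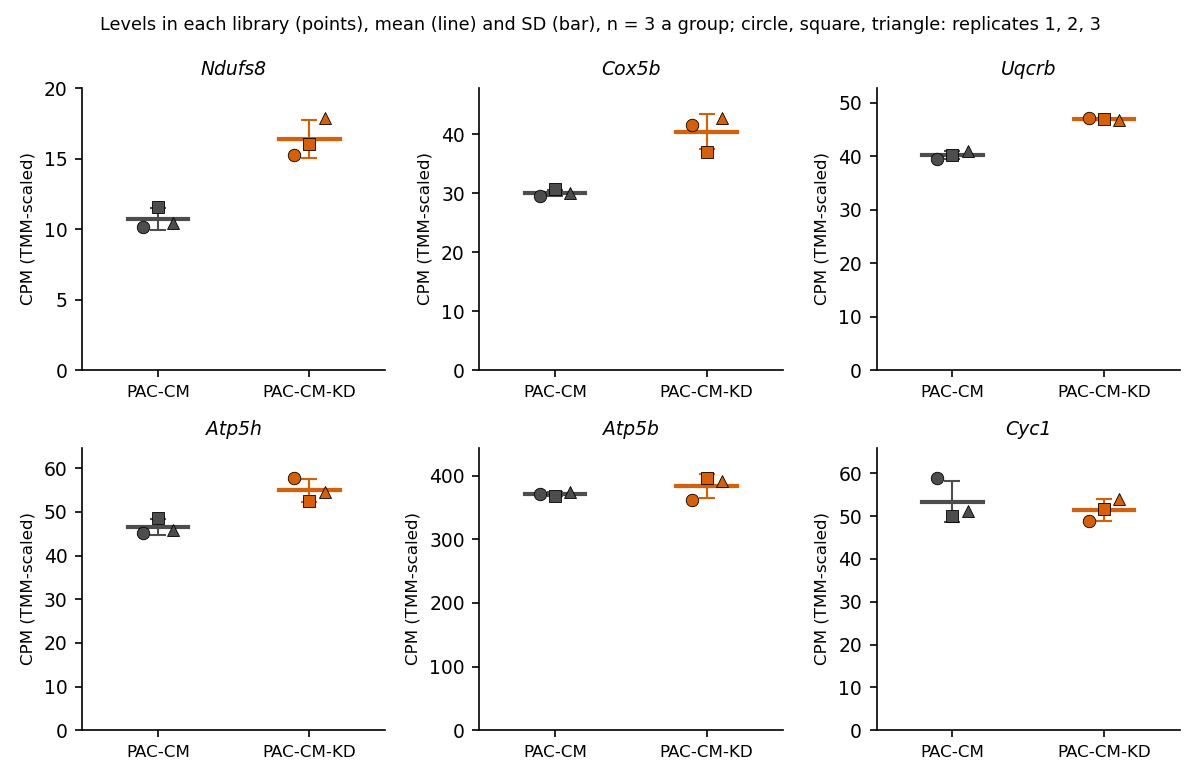
Level of 6 members in each library (y axes, TMM-scaled CPM from 0; points, replicates 1 to 3; line and bar, mean and SD, n = 3 per group). In Ndufs8, Cox5b, Uqcrb and Atp5h every PAC-CM-KD point lies above every PAC-CM point, while in Atp5b and Cyc1 the groups overlap.

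The median of complex IV was 0.15, with 8 of 10 estimates above 0 and 7 genes wholly higher with kinsenoside (5 as a share of the library total). Cox5b (ENSMUSG00000061518, chromosome 1, 36691449 to 36693681), a zinc-binding subunit on the matrix side, was at 29.6, 30.6 and 29.9 CPM without kinsenoside and 41.5, 37.0 and 42.8 CPM with kinsenoside. The groups were well apart (log2 fold change 0.43, SE 0.0749, 1.35-fold), and the edgeR adjusted p of 0.0601 missed the threshold. It passed in 2 of 17 alternatives (adjusted p from 0.000888 to 0.218). A near-identical gene, Gm11273, held 2.09% of the counts of both and had 25, 43 and 28 counts in PAC-CM and 42, 31 and 26 with kinsenoside. Cox5a, its partner in name and also on the matrix side, had 0.17 (edgeR adjusted p = 0.302). Cox6b1, on the outer side where cytochrome c docks, was at 68.2, 69.0 and 68.5 CPM against 79.6, 77.3 and 75.3 CPM. Its PAC-CM libraries agreed within 1 CPM, and its log2 fold change was 0.18 (SE 0.0595, edgeR adjusted p = 0.229). Cox7b, a membrane subunit, had 0.26 (edgeR adjusted p = 0.211).

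Single libraries set the values of 3 complex IV genes. Cox4i1, the most abundant member of the complex and its major regulatory subunit (ENSMUSG00000031818, chromosome 8, 120668222 to 120674207), was at 152.8 and 149.5 CPM in PAC-CM replicates 1 and 3 but at 92.5 CPM in replicate 2, against 172.4, 177.1 and 175.0 CPM with kinsenoside. Its log2 fold change was 0.41 (SE 0.188, edgeR adjusted p = 0.376), and 0.21 without PAC-CM replicate 2. Cox8a, a small membrane subunit (chromosome 19, 7215153 to 7217616), was at 44.9 and 44.5 CPM in PAC-CM replicates 1 and 2 but at 72.8 CPM in replicate 3, against 45.7, 44.6 and 46.7 CPM with kinsenoside. Its log2 fold change of -0.24 (SE 0.198, edgeR adjusted p = 0.629), the lowest of all members, was 0.04 without PAC-CM replicate 3. Cox7a2 was at 52.9 CPM in PAC-CM replicate 2 against 41.5 to 46.0 CPM in the other 5 libraries, with an estimate of -0.02, and 0.11 without that library. Cox8a and Cox7a2 held the only estimates below 0 among the members of the complex. Without all 3 uneven genes the summed level of complex IV was 347.5 ± 5.40 CPM without kinsenoside and 391.3 ± 8.93 CPM with kinsenoside, a ratio of 1.13. With them it was 578.8 ± 32.6 and 657 ± 5.64 CPM, a ratio of 1.14 (SD, n = 3). Without Cox4i1 alone it was 447.2 ± 10.6 and 482.1 ± 7.95 CPM, a ratio of 1.08, and the median of the remaining 9 genes was 0.13. The ratio of the complex thus moved with which of the uneven genes were left in.

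**Figure D3:**
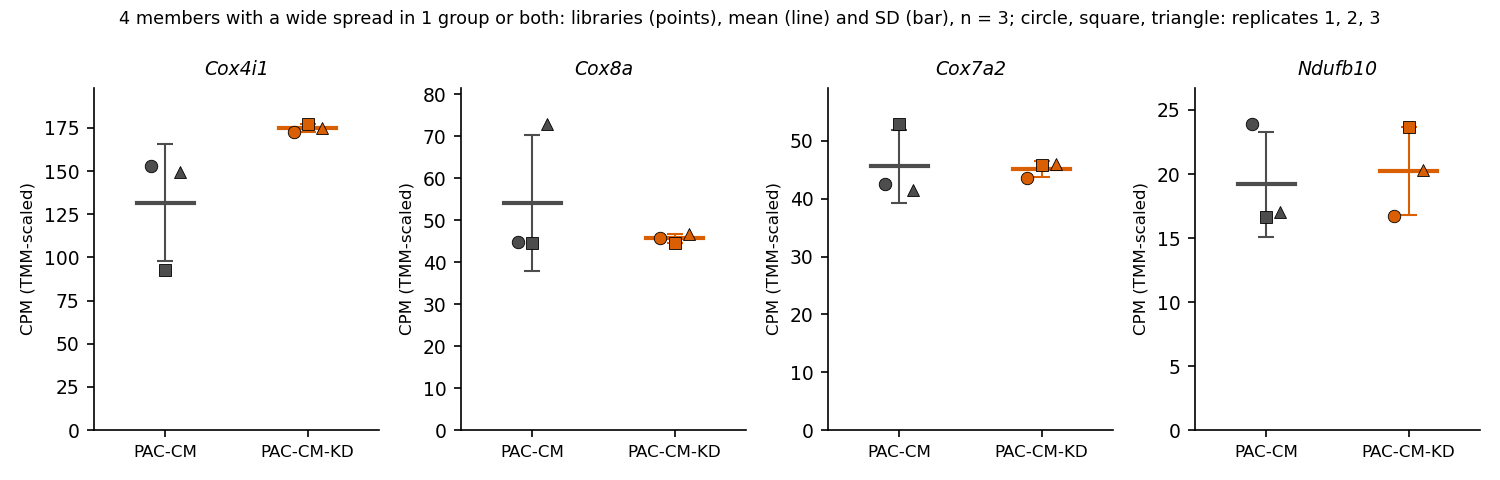
Level of 4 members with a wide spread in 1 group or both (y axes, TMM-scaled CPM from 0; points, replicates 1 to 3; line and bar, mean and SD, n = 3 per group). PAC-CM replicate 2 is low in Cox4i1 (92.5 CPM) and high in Cox7a2 (52.9 CPM), PAC-CM replicate 3 is high in Cox8a (72.8 CPM), and Ndufb10 scatters in both groups.

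Complex V held the most abundant members in CPM. Of its 11 genes 10 had estimates above 0, the median was 0.13, and 8 were wholly higher with kinsenoside (7 as a share of the library total). The catalytic head and central stalk, Atp5a1, Atp5b, Atp5c1 and Atp5d, had estimates from -0.0052 to 0.11. Atp5b, the catalytic beta subunit (ENSMUSG00000025393, chromosome 10, 128083273 to 128090391), was at 371.7, 368.3 and 374.1 CPM without kinsenoside and 361.9, 396.6 and 391.3 CPM with kinsenoside. PAC-CM-KD replicate 1 was the lowest of all 6 libraries, so the groups overlapped (log2 fold change 0.05, SE 0.0604, edgeR adjusted p = 0.782). Atp5d, the delta subunit of the central stalk, was at 62.4 ± 2.12 CPM and 62.2 ± 3.46 CPM (SD, n = 3), the lowest estimate of the complex.

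All 7 members of the membrane part and peripheral stalk of complex V (Atp5g1, Atp5g3, Atp5h, Atp5j, Atp5k, Atp5l and Atp5o) were wholly above in PAC-CM-KD, with estimates from 0.10 to 0.25, and Atp5g3 overlapped as a share of the library total. Atp5h, subunit d of the peripheral stalk (ENSMUSG00000034566, chromosome 11, 115415689 to 115419962), was at 45.2, 48.6 and 45.8 CPM without kinsenoside and 57.8, 52.5 and 54.6 CPM with kinsenoside (log2 fold change 0.24, SE 0.0681, edgeR adjusted p = 0.164). Its pseudogene Gm10250 held 9.20% of the counts of both. Atp5o, which ties the stalk to the catalytic head, had 0.22 (SE 0.0670, edgeR adjusted p = 0.197). Atp5k, subunit e of the membrane part and the gene of highest estimate, was low in all libraries, at 5.78 ± 0.137 CPM and 6.89 ± 0.605 CPM (SD, n = 3; log2 fold change 0.25, edgeR adjusted p = 0.352). For Cycs, Cox7c, Atp5g1 and Atp5l near-identical genes held more than 10% of the combined counts, so their values are uncertain to that degree. Subunits outside the members did not all follow this grouping. Atp5f1 of the peripheral stalk had 0.06 and Atp5j2 of the membrane part had -0.03, both with overlapping groups, while Atp5e of the central stalk had 0.27 and was wholly higher. As in complex III, the grouping was drawn after the values were seen and has no test.

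Taken by complex, the summed level was 518.5 ± 16.8 CPM without kinsenoside and 569 ± 5.33 CPM with kinsenoside in complex I (ratio 1.10) and 1208 ± 19.4 and 1276 ± 40.2 CPM in complex V (ratio 1.06). In complex III it was 404.1 ± 5.45 and 418 ± 3.53 CPM (ratio 1.03; SD, n = 3). As shares of the library total, the groups stood apart in complexes I and IV and overlapped in complexes II, III and V and in cytochrome c. The order of the complexes was not tested. Ndufa4 is counted with complex I by its symbol, although the protein is now placed in complex IV. Moved there, it gave medians of 0.12 for complex I and 0.17 for complex IV.

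**Figure D4:**
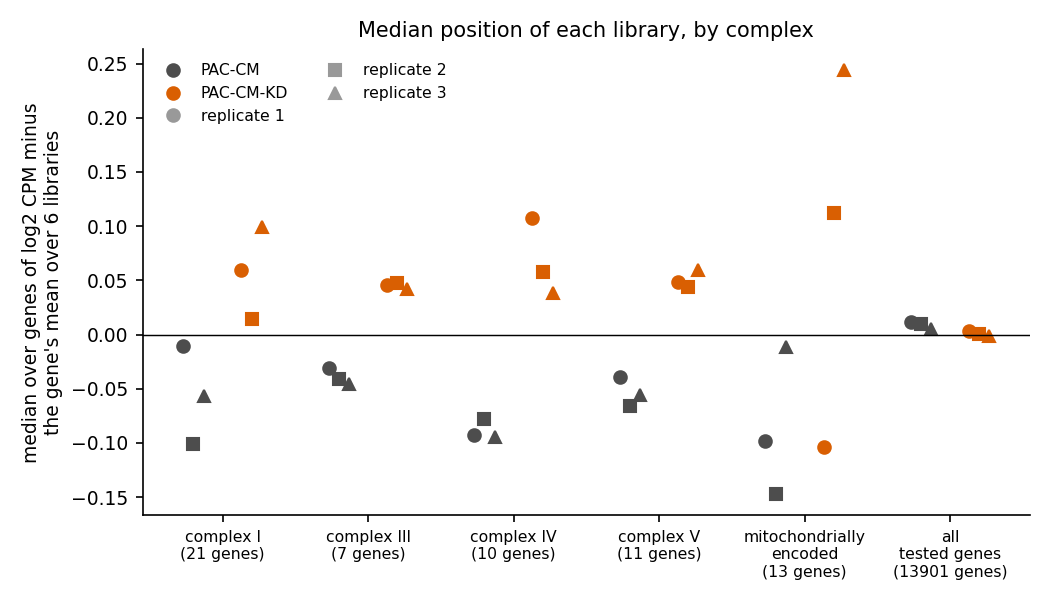
Median position of each library by complex: for each gene, log2 CPM minus its mean over the 6 libraries, then the median over the genes of the list (y axis; grey, PAC-CM; orange, PAC-CM-KD; shapes, replicates). In complexes I, III, IV and V all PAC-CM-KD points lie above all PAC-CM points, whereas for the mitochondrially encoded genes PAC-CM-KD replicate 1 lies at -0.10, among the PAC-CM libraries. The median log2 fold change of complex III was nonetheless 0.02, and as summed shares of the library total the groups overlapped in complexes III and V.

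Transcript length moved with the estimates. Lengths are those of each gene's principal transcript in GENCODE M21. The 29 members under 1000 nt had a median log2 fold change of 0.18, and 12 of them had an unadjusted p under 0.05. The 22 members of 1000 nt or more had a median of 0.06, with 3 under 0.05. Among other protein-coding tested genes the 706 under 1000 nt had a median of 0.08, with 62.6% of estimates above 0. The 11083 longer ones had a median of -0.02, with 46.2% above 0. An unadjusted p under 0.05 was found for 137 of the 706 (112 of them higher with kinsenoside) and 1695 of the 11083 (675 higher). The groupings within complexes III and V ran partly along length. The 4 core and electron-carrying genes of complex III had transcripts of 1363 to 1896 nt, against 535 nt for Uqcrb, 547 nt for Uqcrh and 1521 nt for Uqcrq, whose estimate was 0.03. The head and central stalk genes of complex V had 1166 to 2471 nt, against 371 to 838 nt for the membrane and peripheral stalk genes other than Atp5g1. Atp5g1 went against this, with 4715 nt and an estimate of 0.20. With a correction of each library for transcript length and GC content, the median over all members was 0.10, that of complex IV was 0.08 and that of complex V 0.10, while the median of all tested genes rose from -0.0056 to 0.03. By their median the members thus lay nearer to all tested genes than without the correction. At an unadjusted p under 0.05 there were 10 members rather than 15, with no share of all tested genes counted beside it under this correction. Not every value fell. Complex I stayed at 0.14, complex III went from 0.02 to 0.05, and 47 rather than 44 of the 51 estimates were above 0. Because the median of all tested genes rose as well, complex I lay nearer to it than before. The share of all tested genes above 0 was not counted under this correction. Ndufs8 passed with this correction (edgeR adjusted p = 0.0421, where 0.647% of genes did), and both Ndufs8 and Cox5b passed with the correction by median transcript (edgeR adjusted p = 0.0433 and 0.0408, where 0.662% did). The part of length in the values of single genes was not tested.

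Compared per length of transcript, complex I genes had the lowest median level of the 4 complexes with several members. The median level was 35.8 CPM per kb in complex I, 81.6 in complex III, 84.6 in complex IV and 93.2 in complex V, with lengths as the median protein-coding transcript of each gene. Sdhb was at 85.8 and Cycs at 42.0 CPM per kb. Within the members this level ran from 8.49 CPM per kb for Ndufa5 to 205.7 for Cox4i1. All 51 genes lay above the median of protein-coding tested genes, 8.38 CPM per kb, while by principal transcript 49 did. With other definitions of length complex I still had the lowest median, at 23.1 CPM per kb by principal transcript and 12.8 by the union of exons.

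The estimates of Ndufa4 and its paralogue AA467197 lay on opposite sides of 0. AA467197 is the mouse counterpart of human C15orf48, whose protein can take the place of NDUFA4 in complex IV in inflamed cells. Ndufa4 (chromosome 6, 11900292 to 11907497) was at 16.5, 16.7 and 18.6 CPM without kinsenoside and 22.6, 21.6 and 19.4 CPM with kinsenoside, wholly higher (log2 fold change 0.29, SE 0.0934, edgeR adjusted p = 0.205). AA467197 (chromosome 2, 122636986 to 122641191) was at 554, 527 and 533 CPM without kinsenoside and 421, 453 and 525 CPM with kinsenoside, wholly lower (log2 fold change -0.21, SE 0.0851, edgeR adjusted p = 0.310). Neither passed the threshold. There were 33.5, 31.5 and 28.6 counts of AA467197 for each count of Ndufa4 in PAC-CM and 18.6, 21.0 and 27.1 in PAC-CM-KD. PAC-CM-KD replicate 3 lay close to PAC-CM replicate 3 in this ratio. Per length of principal transcript the ratio was 25.8, 24.3 and 22.0 in PAC-CM and 14.4, 16.1 and 20.9 with kinsenoside, so the paralogue was the more abundant transcript in every library.

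**Figure D5:**
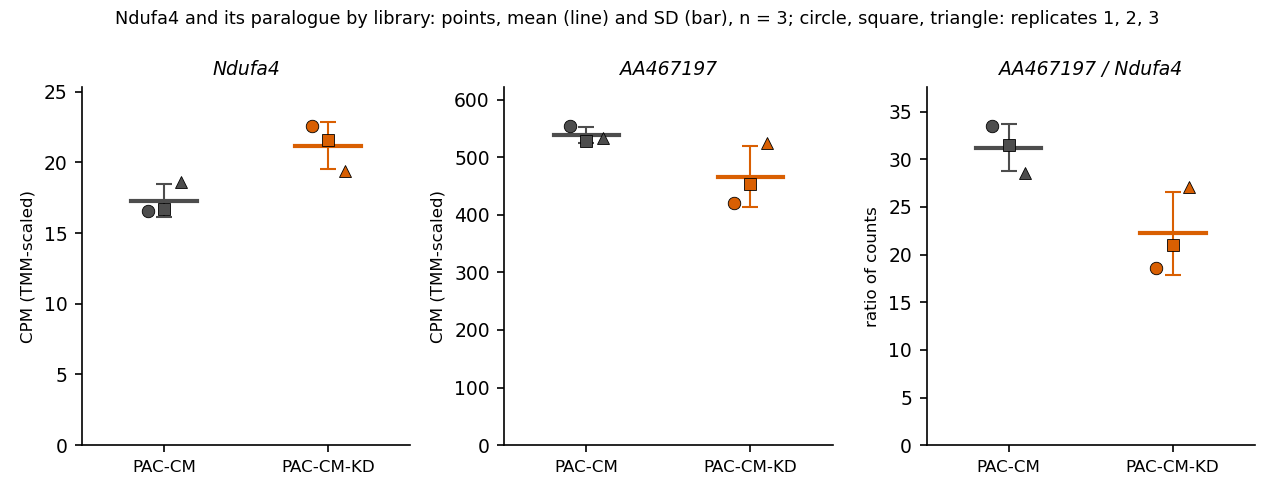
Ndufa4, its paralogue AA467197 (both in TMM-scaled CPM) and the ratio of their counts in each library (y axes from 0; points, replicates 1 to 3; line and bar, mean and SD, n = 3 per group). Ndufa4 is wholly higher and AA467197 wholly lower in PAC-CM-KD, and the ratio ranges from 28.6 to 33.5 in PAC-CM and from 18.6 to 27.1 in PAC-CM-KD.

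Other isoforms of the chain were scarcely present. Cox7a1, the muscle form of a complex IV subunit, had 24, 28 and 28 counts in PAC-CM and 27, 20 and 8 with kinsenoside. Cox4i2, Cox6a2, Cox6b2 and Ndufa4l2 had at most 12 counts in any library, and Cox7b2, Cox8b, Cox8c and the testis cytochrome c gene Cyct had 0 in all 6, which allows up to 0.0746 CPM in the shallowest library (3 counts read as whole reads, counting error only).

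The remaining genes of the pathway were taken from lists of subunits, assembly factors, regulators and electron inputs. By edgeR, 0 genes of any of these lists were called. Of 29 further nuclear subunits 21 had estimates above 0, with a median of 0.11. An unadjusted p under 0.05 was found for 3, each higher with kinsenoside, against 14.9% of all tested genes in either direction and 6.74% higher. In CPM 10 were wholly higher and 2 wholly lower with kinsenoside, against 10.4% and 11.4% of all tested genes. Their summed share of the library total overlapped between the groups (ratio 1.01). In TMM-scaled CPM the groups stood apart, at 1066 ± 11.9 in PAC-CM and 1113 ± 21.2 in PAC-CM-KD (ratio 1.04; SD, n = 3). By share of the library total 5 of these subunits were wholly higher and 2 wholly lower, against 6.86% and 15.7% of all tested genes. They ranged from -0.34 for Atp5s, a coupling factor of the ATP synthase, to 0.27 for Atp5e, the epsilon subunit (27.5 ± 0.925 CPM without kinsenoside and 33.2 ± 1.60 CPM with kinsenoside, SD, n = 3; edgeR adjusted p = 0.133). Of 46 assembly factors, which build the complexes without staying in them, 22 were above 0, with a median of -0.0004. These ranged from -0.58 for the copper chaperone Sco2, which was at 0.772 CPM in PAC-CM-KD replicate 1 against 2.23 to 2.87 CPM elsewhere, to 0.35 for Ndufaf2. The median of the assembly factors lay near that of all tested genes and below that of the further subunits, a difference that was not tested.

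All 13 mitochondrially encoded subunits had estimates above 0, from 0.09 for mt-Nd1 to 0.20 for mt-Nd6, with a median of 0.19. Their groups overlapped in summed level, at 26420, 25550 and 27740 CPM without kinsenoside and 26180, 30340 and 33650 CPM with kinsenoside. PAC-CM-KD replicate 1 was among the PAC-CM libraries here, while in the nuclear-encoded members it stood with its group. Of 12 tested regulators of mitochondrial gene expression 6 were above 0. Esrra, the gene of ERRA, was at 48.5, 49.0 and 44.5 CPM without kinsenoside and 44.4, 37.3 and 35.1 CPM with kinsenoside (log2 fold change -0.28, edgeR adjusted p = 0.229). Pprc1, a coactivator of NRF1, was at 12.1, 9.95 and 13.9 CPM against 14.2, 19.2 and 15.0 CPM (log2 fold change 0.43, edgeR adjusted p = 0.257). Of 10 other electron inputs and carriers 6 were above 0, from -0.22 for the pyrimidine enzyme Dhodh to 0.20 for the sulfide oxidase Sqor.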

How the data were processed

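The authors deposited 1 table of whole-number counts per Ensembl gene for 6 RNA-seq libraries, poly(A) RNA per the labels. Per the submitters' processing notes, the tools included STAR, StringTie 1.3.1c and DESeq2 1.16.1, and the build was GRCm38. The counting tool and its use of strand are not given in the sources used, so overlapping genes cannot be told apart. In every deposited column more genes had a count of 3 (992 to 1068) than of 2 (805 to 900), and whether the counts are whole reads or rounded estimates is likewise not given.

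Counts were fitted as deposited in edgeR 4.0.16 (R 4.3.3): filterByExpr, TMM scaling, robust quasi-likelihood fits on group alone, a two-sided test and Benjamini-Hochberg adjustment over 13901 genes (threshold 0.05). Each SE was obtained as the size of the log2 change over the root of F. The median positions of libraries used log2 CPM with a prior count of 2. Alternatives were DESeq2 1.42.0, limma-voom 3.58.1, other scalings and filters, a replicate block, a length and GC correction (loess span 0.5) and leaving out each library. Near-identical genes were those sharing at least 150 nt at 97% identity (BLAST 2.17.0), without overlapping genes. The script was tested on simulated data.

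Members, lists and motifs were chosen with earlier results of these data known. In each complex the most abundant gene, that of smallest p and those of lowest and highest estimate were described in full, and in each list those of lowest and highest estimate.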

Additional observations from a re-analysis of the deposited data

How the results depend on the processing

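Precision is limited by 3 libraries per group: standard errors ran from 0.0574 (Atp5c1) to 0.198 (Cox8a), against a median estimate of 0.12. The sign of several estimates near 0 depended on the setting, and the cause was not tested. The 71 genes called by edgeR became 494 with DESeq2, 39 with limma-voom, 36 with non-robust estimates, 42 with the replicate block and 11 at a threshold of 0.01. Without PAC-CM replicate 1, 2 or 3 they were 13, 26 and 14, and without PAC-CM-KD replicate 1, 2 or 3 they were 98, 20 and 37. With the replicate block 0 members were called. The deviations of same-numbered libraries correlated at 0.009, -0.101 and 0.135, and not every library correlated best with its own number, so the numbers were not read as pairs. The 0 members called by edgeR became 2 with DESeq2, 1 with no filter, 1 with the length and GC correction and 2 when that correction used the median transcript, a version chosen after seeing the data, as was the level by principal transcript. Leaving out any 1 library gave 0. With total count scaling the median was 0.0734 for all members, 0.0929 for complex I, -0.0281 for complex III, 0.106 for complex IV, 0.0817 for complex V and -0.0086 for cytochrome c, and the estimate was -0.0128 for Atp5a1, -0.0086 for Cycs, -0.0392 for Ndufb9, -0.0293 for Uqcrc1, -0.0281 for Uqcrfs1 and -0.01 for Uqcrq. With upper quartile scaling the median was 0.0996 for all members, -0.0018 for complex III and 0.108 for complex V, and the estimate was -0.0129 for Ndufb9, -0.0031 for Uqcrc1 and -0.0018 for Uqcrfs1. With DESeq2 the median was 0.0238 for complex III, and the estimate was 0.0024 for Atp5d and 0.0032 for Ndufs3. With RLE size factors the median was 0.0236 for complex III, and the estimate was 0.0024 for Atp5d and 0.0033 for Ndufs3. With the stricter filter on low counts the estimate was 0.0002 for Ndufs3. With the length and GC correction the median was 0.0997 for all members, 0.0538 for complex III, 0.0762 for complex IV and 0.0997 for complex V, and the estimate was 0.0757 for Atp5d, 0.0103 for Cyc1, -0.017 for Ndufb9, 0.0075 for Ndufs3 and 0.0055 for Uqcrc2. With that correction by median transcript the median was 0.0966 for complex II, 0.112 for complex IV and 0.11 for complex V, and the estimate was 0.0776 for Atp5d, 0.0185 for Cyc1, 0.0273 for Ndufs3, 0.0218 for Ndufs7 and -0.0235 for Uqcrq. The median level per kb by principal transcript was 40.7 for all members, 23.1 for complex I, 52.4 for complex III, 79.8 for complex IV and 81.8 for complex V. The median level per kb by the union of exons was 24.4 for all members, 12.8 for complex I, 43.7 for complex II, 30.8 for complex III, 40.1 for complex IV, 32.3 for complex V and 38.5 for cytochrome c. With 1 library left out, the median ranged from 0.11 to 0.146 for all members, 0.117 to 0.188 for complex I, -0.0102 to 0.0499 for complex III and 0.101 to 0.147 for complex V. The estimate ranged from -0.0144 to 0.0836 for Atp5a1, -0.0288 to 0.0407 for Atp5d, -0.0754 to 0.107 for Cox7a2, -0.364 to 0.035 for Cox8a, -0.0966 to 0.024 for Cyc1, -0.0513 to 0.266 for Ndufb10, -0.01 to 0.0251 for Ndufb9, -0.0703 to 0.0318 for Ndufs3, -0.0179 to 0.0499 for Uqcrc1, -0.0342 to 0.0254 for Uqcrc2, -0.0102 to 0.0604 for Uqcrfs1 and -0.0485 to 0.108 for Uqcrq.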
